A study of Mus musculus with 9 samples.

Results

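The Hox genes of the 4 clusters are the homeobox genes whose position along a chromosome mirrors the place where they act along the body axis. Members were taken as every symbol of the deposited tables made of Hox, a cluster letter from a to d and a number, which gave 38 of the 38197 symbols. Cluster A held 11 of them, cluster B 10, cluster C 9 and cluster D 8. No symbol Hoxd4 was in these tables, so the sums of cluster D and of paralogs numbered 4 leave it out. Each member encodes a homeodomain transcription factor, and members with the same number in different clusters are paralogs that descend from 1 ancestral gene. Within a cluster the low numbers lie at one end, are switched on first by retinoic acid and set boundaries in the hindbrain, while higher numbers come on later and act in the caudal hindbrain and the spinal cord. In the hindbrain, the set of Hox genes that a progenitor expresses distinguishes one rhombomere from the next and guides which motor neurons form there.

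The study followed neural stem cells (NSCs) made from wild-type mouse embryonic stem cells of strain 129, grown as a monolayer and given retinoic acid and SAG, an agonist of the Hedgehog pathway, by the labels during the first 3 days in differentiation conditions (DDC), while the paper's methods leave both out of the medium from 3.5DDC. Cells carrying prominin-1, a surface protein of progenitors, were collected with magnetic beads at 4.5DDC, 5.5DDC or 6.5DDC, and their polyadenylated RNA was sequenced. All 9 libraries share genotype, strain and treatment, so by their labels the groups differ in time alone, with 3 replicates per time point. Another field of the labels gives the times as 4, 5 and 6 days. The libraries of replicates 1, 2 and 3 summed to 17820601, 11244486 and 14390488 counts at 4.5DDC. At 5.5DDC they summed to 25506193, 11573523 and 11066568 counts, and at 6.5DDC to 12851786, 16479972 and 15913821 counts. The detection floor of 3 counts lay between 0.118 and 0.271 CPM (each count scaled to a common library total) and covers counting error only. The labels do not say whether replicates of a time point are separate cultures, so p-values measure the spread between these samples. No untreated culture is among these libraries, and cells collected before 4.5DDC were not used here.

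The progenitor label was checked against its markers. Of 9 progenitor genes all 9 were tested, and their levels summed to between 391.8 and 495.4 FPKM (a level scaled to transcript length and to mapped reads), with the intermediate filament gene Nes at a mean of 157.0 FPKM as the most abundant. Markers of pluripotent cells summed to between 0.393 and 1.14 FPKM over 4 genes, with Zfp42 at a mean of 0.293 FPKM as the most abundant, and 11 forebrain and midbrain genes summed to between 1.003 and 1.81 FPKM, with En2 at 0.719 FPKM as the most abundant. The rostral and pluripotent markers were thus low in every library. Nes, Sox2 and Prom1 made up most of the progenitor sum, and Pax6, Sox3 and Nkx6-2 stayed at or under 14.4 FPKM. Neuron genes were present as well, at sums between 94.6 and 431 FPKM.

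Replicate 1 stood apart from replicates 2 and 3 at each time point. Across the log2 CPM of all genes tested, replicates 2 and 3 had a Pearson r of 0.977 at 4.5DDC, 0.993 at 5.5DDC and 0.983 at 6.5DDC. Pairs that held replicate 1 gave values from 0.945 to 0.967. These are correlations across genes, which are not independent replicates, and they serve as description only. The Hox genes are therefore given within replicate 1, within replicates 2 and 3, and over all 9 libraries.

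By mean level, 15 members reached at least 5 FPKM at a time point, most of them in clusters A and B and among them Hoxb2 to Hoxb8, Hoxc4, Hoxc5 and Hoxd3. Another 2, Hoxb9 and Hoxd8, had means between 1 and 5 FPKM, the highest being 2.07 FPKM. A further 15 stayed under 1 FPKM with at least 1 count somewhere, and 6 had 0 counts in all 9 libraries (Hoxc10, Hoxc11, Hoxc12, Hoxd10, Hoxd11 and Hoxd12). Means of at least 1 FPKM thus lay among paralogs numbered 1 to 9, with few counts beyond. Not every member in that range reached them, and Hoxb1, Hoxd1, Hoxa6 and Hoxc8 were among those under 1 FPKM. Of the 38 members, 20 had enough counts to be tested, 7 in cluster A, 8 in cluster B, 3 in cluster C and 2 in cluster D. The 18 that were not tested had at most 16 counts in any library and a mean of at most 0.188 FPKM at any time point, so changes in them were not detectable at this depth.

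On the build GRCm38, cluster A lies at chr6:52155590-52260880, cluster B at chr11:96194316-96368256, cluster C at chr15:102921103-103036852 and cluster D at chr2:74668310-74765142. Cluster A is read from the minus strand and the other clusters from the plus strand, and their members span 105.3, 173.9, 115.8 and 96.8 kb. Among the 15 members at 5 FPKM or more, 5 are in cluster A, 7 in cluster B, 2 in cluster C and 1 in cluster D. The most abundant member of each cluster over the 9 libraries was Hoxa2, Hoxb2, Hoxc4 or Hoxd3. That order did not hold throughout. Hoxb8 had a higher mean than Hoxb2 at 5.5DDC (20.6 against 18.8 FPKM) and at 6.5DDC (20.6 against 19.8 FPKM), and within replicates 2 and 3 Hoxa5 lay above Hoxa2 at 6.5DDC (19.5 against 16.25 FPKM). Transcripts within a cluster overlap, which limits how reads of these genes can be assigned. Exons of other genes cover 62.4% of the exonic bases of Hoxd3 on the same strand and 52.9% of those of Hoxb3 on the opposite strand. For Hoxa5, Hoxb4, Hoxb5, Hoxb6, Hoxb8, Hoxb9 and Hoxc4 the overlap on the same strand was 0%, and among these 7 only Hoxb5 had overlap on the opposite strand, 3.59%. The strand setting used in counting is not stated.

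**Figure D1:**
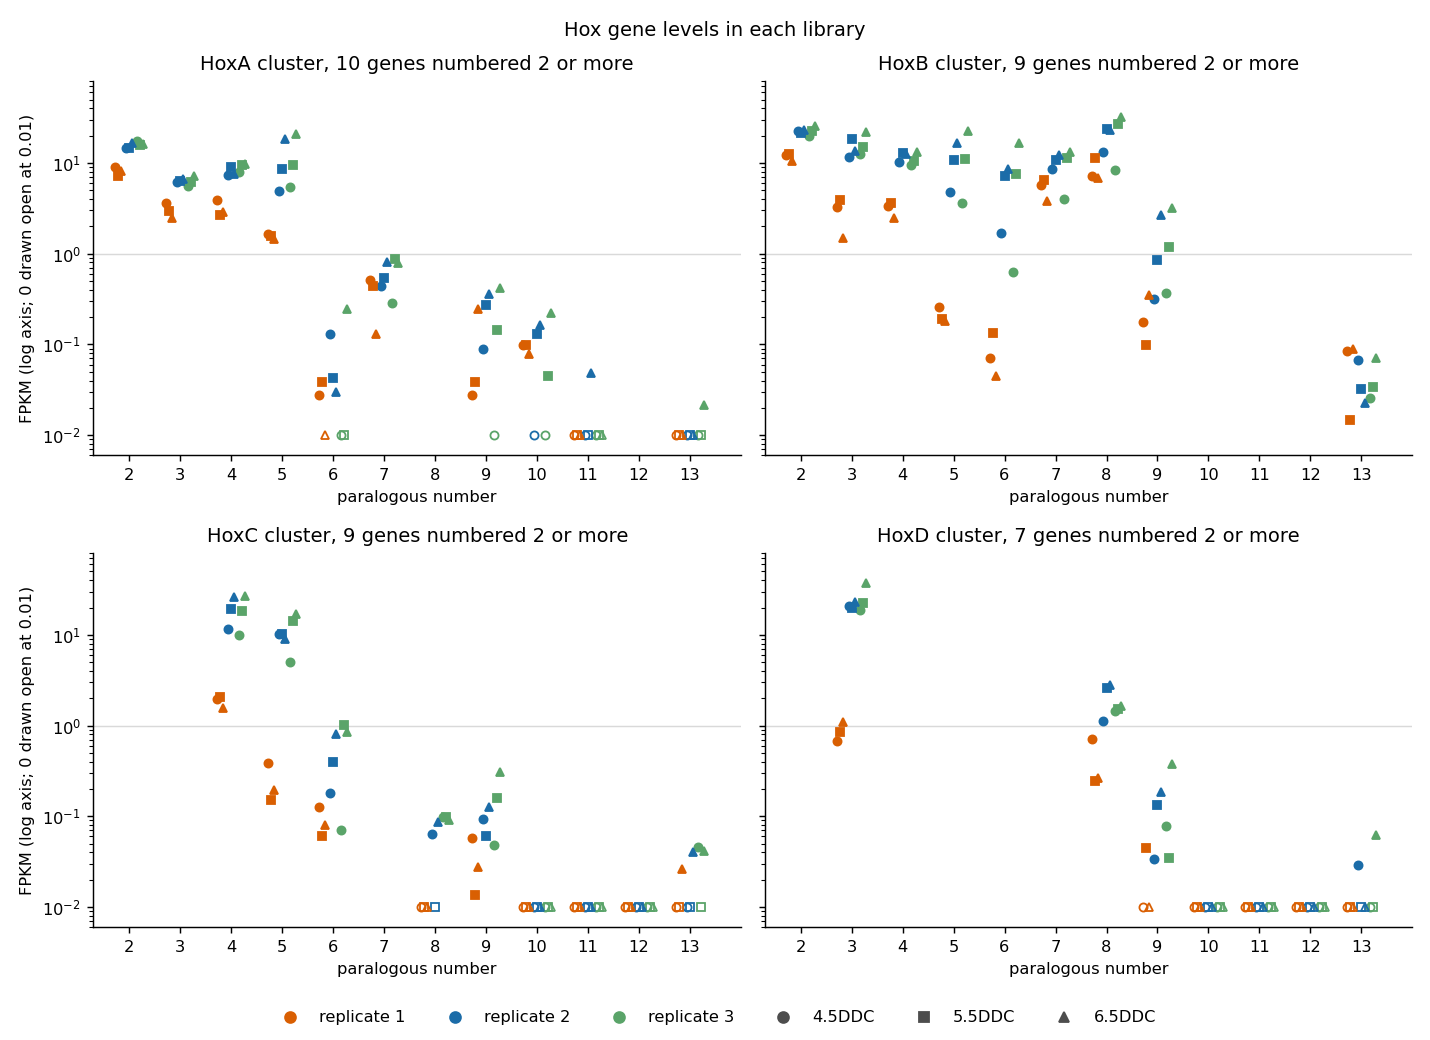
Levels of the Hox members numbered 2 or more in each of the 9 libraries, with 1 panel per cluster, the paralog number on the horizontal axis and FPKM on a logarithmic vertical axis (open symbols at the bottom stand for 0). Colours mark replicates and shapes mark time points, replicate 1 lies below the others for most members numbered up to 6, and members numbered 10 or more sit near the bottom.

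The paralogs numbered 1 to 3 are best known from the hindbrain. Hoxa2, which patterns anterior rhombomeres, stood in replicate 1 at 8.94, 7.10 and 8.20 FPKM at 4.5DDC, 5.5DDC and 6.5DDC. In replicates 2 and 3 it stood at 14.7 and 17.3 FPKM, then 14.7 and 15.7 FPKM, then 16.4 and 16.1 FPKM. The time points overlapped and replicate 1 was the low library each time. The mean of all 3 libraries was 13.7 ± 4.29 FPKM (SD, n = 3) at 4.5DDC and 13.6 ± 4.65 FPKM (SD, n = 3) at 6.5DDC. Its paralog Hoxb2, which helps to pattern the fourth rhombomere, ran from 10.5 to 12.5 FPKM in replicate 1 and from 19.98 to 25.8 FPKM in replicates 2 and 3. Both genes therefore held separate ranges in replicate 1 and in the other replicates, with no trend over time that passed a test.

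Hoxd3, a paralog that acts in the caudal hindbrain and the neck, had one of the widest gaps. In replicate 1 it had 0.683, 0.851 and 1.10 FPKM at the successive time points, from 23, 40 and 36 counts. Replicates 2 and 3 had 20.6 and 18.6 FPKM, then 19.6 and 22.4 FPKM, then 23.04 and 37.1 FPKM. Every replicate 1 library lay far below every other library, so the time points overlapped. Hoxa3, which shares its number, ran from 2.49 to 3.60 FPKM in replicate 1 and from 5.51 to 7.21 FPKM in replicates 2 and 3. Hoxb3 ran from 1.48 to 3.91 FPKM in replicate 1 and from 11.5 to 22.1 FPKM in replicates 2 and 3. All 3 genes numbered 3 were thus lower in every replicate 1 library than in any library of the other replicates.

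Paralogs numbered 4 and 5 act in the caudal hindbrain and the cervical spinal cord. Hoxc4 stood at 1.96, 2.06 and 1.55 FPKM in replicate 1 at 4.5DDC, 5.5DDC and 6.5DDC. Replicate 2 had 11.5, 19.0 and 25.9 FPKM at the same times, and replicate 3 had 9.93, 18.5 and 26.5 FPKM. In replicates 2 and 3 each later time point lay above the earlier one, and in replicate 1 the level stayed low. Hoxa4 ran from 2.69 to 3.86 FPKM in replicate 1 and from 7.43 to 9.62 FPKM in the other replicates, and Hoxb4 from 2.49 to 3.60 and from 9.45 to 13.2 FPKM.

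Hoxa5, whose product patterns the cervical and upper thoracic region, had 1.63, 1.59 and 1.46 FPKM in replicate 1 at the 3 successive time points. Replicate 2 had 4.97, 8.67 and 18.3 FPKM, and replicate 3 had 5.45, 9.53 and 20.8 FPKM. Its levels in replicates 2 and 3 were close to each other and climbed at each step, while replicate 1 was flat. Hoxb5, its paralog, had 0.257, 0.192 and 0.183 FPKM in replicate 1, from 16, 17 and 8 counts. Replicate 2 had 4.81, 10.7 and 16.8 FPKM of Hoxb5, and replicate 3 had 3.58, 11.1 and 22.6 FPKM. Low counts in every replicate 1 library and levels that climbed in the others describe this gene. In CPM the mean of replicates 2 and 3 was 16.6 times that of replicate 1 at 4.5DDC, 56.4 times at 5.5DDC and 103 times at 6.5DDC. Hoxc5, the third paralog, had 0.386, 0.152 and 0.197 FPKM in replicate 1. Replicate 2 had 10.2, 10.1 and 9.08 FPKM of Hoxc5, and replicate 3 had 5.00, 14.1 and 16.8 FPKM. In CPM replicate 2 climbed instead, at 18.5, 26.8 and 30.3 CPM, so its direction there depends on the unit.

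Of the higher paralogs, Hoxb6 to Hoxb8 were the ones that reached 5 FPKM, and their products act in the cervical and thoracic cord. Hoxb6 had 3, 8 and 1 counts in replicate 1 at 4.5DDC, 5.5DDC and 6.5DDC, or 0.0716, 0.133 and 0.0446 FPKM. Replicate 2 had 1.71, 7.20 and 8.60 FPKM, and replicate 3 had 0.622, 7.60 and 16.7 FPKM. Hoxb6 was thus at or near the floor in replicate 1 and climbed from a low start in the others. Hoxb8 had 7.18, 11.3 and 6.80 FPKM in replicate 1, which is well above the floor, and showed no steady trend there. In replicate 2 it had 13.1, 23.8 and 22.8 FPKM and in replicate 3 it had 8.38, 26.7 and 32.2 FPKM. For Hoxb8 both later time points lay above 4.5DDC in replicates 2 and 3. Hoxb7 differed from its neighbours, since replicate 1 at 4.5DDC had 5.65 FPKM, between the 8.61 and 4.05 FPKM of replicates 2 and 3. At 6.5DDC it had 3.83 FPKM in replicate 1 and 12.2 and 13.2 FPKM in the others.

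Hoxb9, Hoxc6 and Hoxd8 had means under 5 FPKM and are named because of their tests, a choice made after their values were seen. Hoxb9, which acts in the thoracic cord, had 10, 8 and 14 counts in replicate 1 at the successive time points, or 0.177, 0.0995 and 0.351 FPKM. Replicate 2 had 0.318, 0.854 and 2.66 FPKM, and replicate 3 had 0.373, 1.18 and 3.21 FPKM. Its 6.5DDC libraries were above its 4.5DDC libraries except for replicate 1, which lay between the 4.5DDC values. Hoxd8 ran from 0.248 to 0.706 FPKM in replicate 1 and from 1.13 to 2.80 FPKM in the others, and Hoxc6 stayed at or under 1.02 FPKM in every library. Paralogs numbered 10 to 13, which pattern the lumbar and sacral levels and the limbs, summed to between 0.0718 and 0.421 FPKM over 12 members, from 3 to 15 counts a library.

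**Figure D2:**
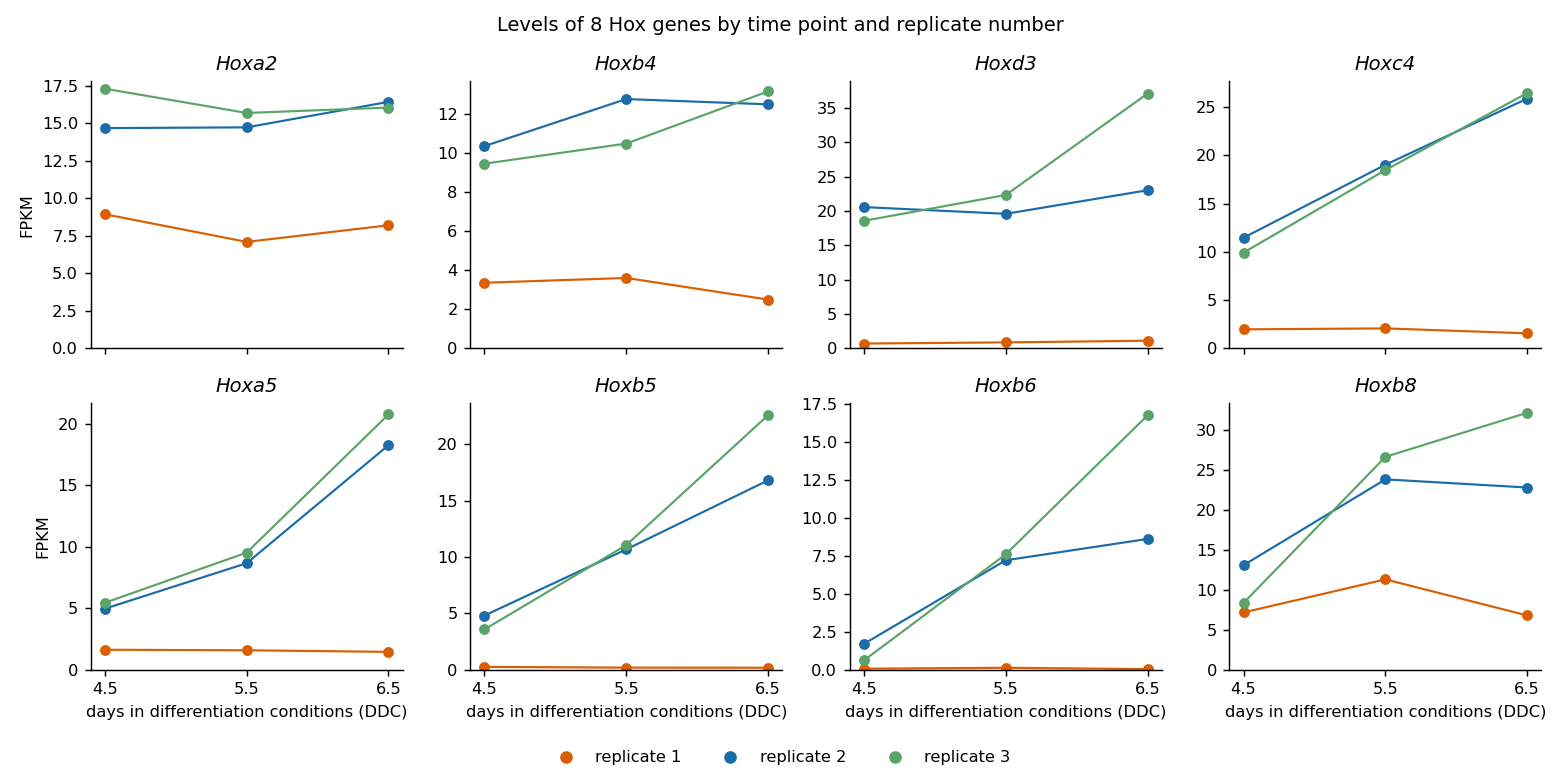
FPKM of 8 Hox members (vertical axes from 0) against time in DDC (horizontal axes), with points joined by replicate number. For Hoxa5, Hoxb5, Hoxb6 and Hoxc4 replicates 2 and 3 climb while replicate 1 stays low, and for Hoxa2 and Hoxb4 the lines run nearly level.

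Summed by cluster, the difference between replicates was wider in clusters C and D than in clusters A and B. Cluster A summed in replicates 1, 2 and 3 to 20.5, 40.5 and 43.8 FPKM at 4.5DDC and to 16.5, 56.5 and 63.2 FPKM at 6.5DDC. Cluster B summed to 32.2, 73.0 and 59.2 FPKM at 4.5DDC and to 25.9, 112 and 149 FPKM at 6.5DDC. In both clusters replicate 1 was lower and still well above the floor. Cluster C summed to 2.53, 22.0 and 15.2 FPKM at 4.5DDC and to 1.88, 36.0 and 44.6 FPKM at 6.5DDC, and cluster D to 1.41, 22.0 and 20.3 FPKM and to 1.36, 26.2 and 39.5 FPKM. The mean of replicates 2 and 3 was 2.06, 2.05, 7.36 and 15.0 times replicate 1 for clusters A, B, C and D at 4.5DDC. At 6.5DDC it was 3.63, 5.06, 21.5 and 24.1 times. Clusters C and D had 3 and 2 members that could be tested, so their sums rest mainly on Hoxc4, Hoxc5 and Hoxd3. In bulk samples fewer cells of a type and less RNA per cell cannot be told apart.

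**Figure D3:**
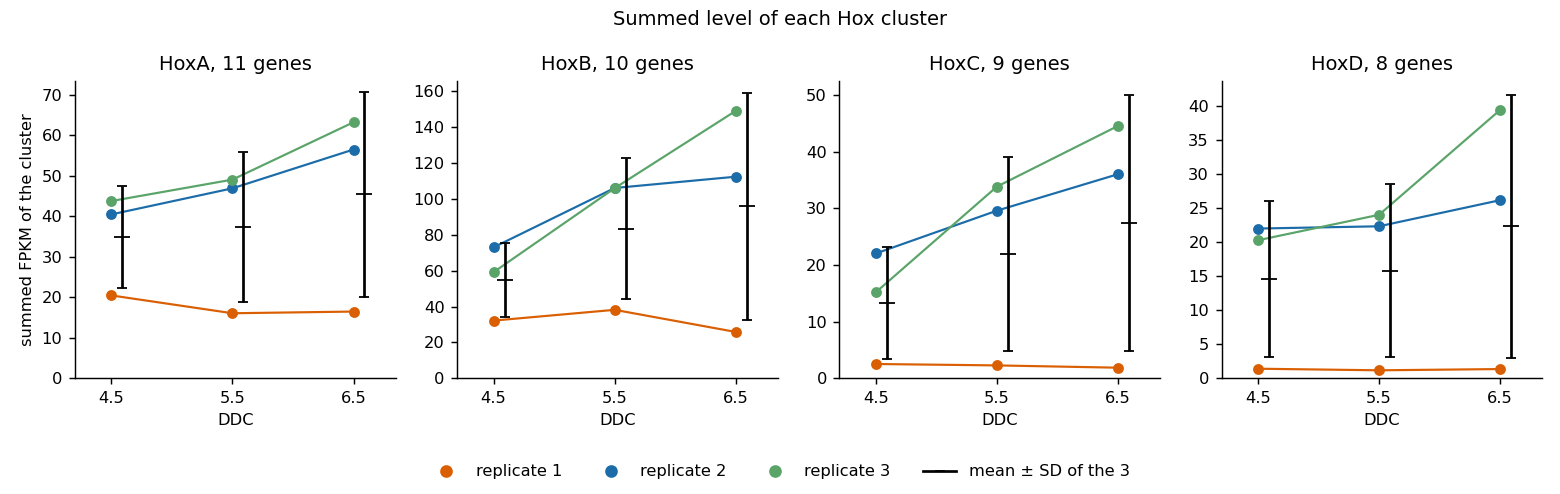
Summed FPKM of each Hox cluster (vertical axes from 0) against time in DDC, with 1 point per library joined by replicate number and the mean ± SD of the 3 libraries beside them. Replicate 1 is the lowest library of every cluster at every time point, and clusters C and D show the widest gap.

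Over all 38 members the summed level was 56.6, 157.5 and 138.4 FPKM in replicates 1, 2 and 3 at 4.5DDC, a mean of 117.5 ± 53.6 FPKM (SD, n = 3). At 5.5DDC it was 57.7, 204.9 and 212.9 FPKM (158.5 ± 87.4, SD, n = 3), and at 6.5DDC 45.6, 231.1 and 296.3 FPKM (191.0 ± 130.1, SD, n = 3). The SD grew with time as replicates 2 and 3 moved away from replicate 1. Summed by paralog number, the mean of replicates 2 and 3 was 1.76 times replicate 1 at 4.5DDC and 2.18 times at 6.5DDC for number 2, the narrowest gap at 6.5DDC among numbers 1 to 9. For number 5 it was 7.49 times at 4.5DDC, 16.6 times at 5.5DDC and 28.4 times at 6.5DDC. Number 3 went from 4.98 to 10.8 times and number 4 from 3.09 to 6.853 times over the same span. Numbers 7 and 8 began close to replicate 1, at 1.09 and 1.54 times, and reached 3.41 and 4.22 times. Number 6 had the widest gap at 5.5DDC, at 35.1 times, after 6.04 times at 4.5DDC, with replicate 1 near the floor. At 6.5DDC replicate 1 had 0, 1 and 2 counts of Hoxa6, Hoxb6 and Hoxc6, each under the floor of 3 counts. No exact ratio or rank is therefore given for number 6 at that time. The gap was therefore uneven along the clusters.

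In replicates 2 and 3, the balance among the paralogs shifted with time. Paralogs 1 to 3 made up 52.2% and 58.9% of all Hox FPKM in replicates 2 and 3 at 4.5DDC, 42.9% and 41.8% at 5.5DDC, and 38.6% and 39.3% at 6.5DDC. Paralogs 4 to 9 made up 47.7% and 41.1% at 4.5DDC, 57.1% and 58.2% at 5.5DDC, and 61.3% and 60.6% at 6.5DDC. In replicate 1 the share of paralogs 1 to 3 was 53.8% at 4.5DDC, 49.3% at 5.5DDC and 54.5% at 6.5DDC. The ranges of 4.5DDC and 6.5DDC did not overlap within replicates 2 and 3, and replicate 1 stayed near its start. This shift was not given a test of its own.

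The gap between replicates was then counted over all genes tested, on TMM-scaled CPM. Of the 20 Hox genes, 16 were lower in replicate 1 than in both others at all 3 time points, against 12.5% of the 14742 genes tested. The 4 exceptions were Hoxa7, Hoxa9, Hoxb7 and Hoxc6. None were higher in replicate 1 at all 3 time points (0 of 20), against 11.1% of all genes. Replicate 1 was at least 4 times lower throughout for 5 of 20, Hoxb5, Hoxb6, Hoxc4, Hoxc5 and Hoxd3, against 0.36% of all genes. The median log2 ratio of replicates 2 and 3 to replicate 1 was 1.0 at 4.5DDC, 2.20 at 5.5DDC and 2.72 at 6.5DDC over the 20 Hox genes (0.5 counts added), and 0.06, 0.00 and -0.03 over all genes. What sets replicate 1 apart was not tested.

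**Figure D4:**
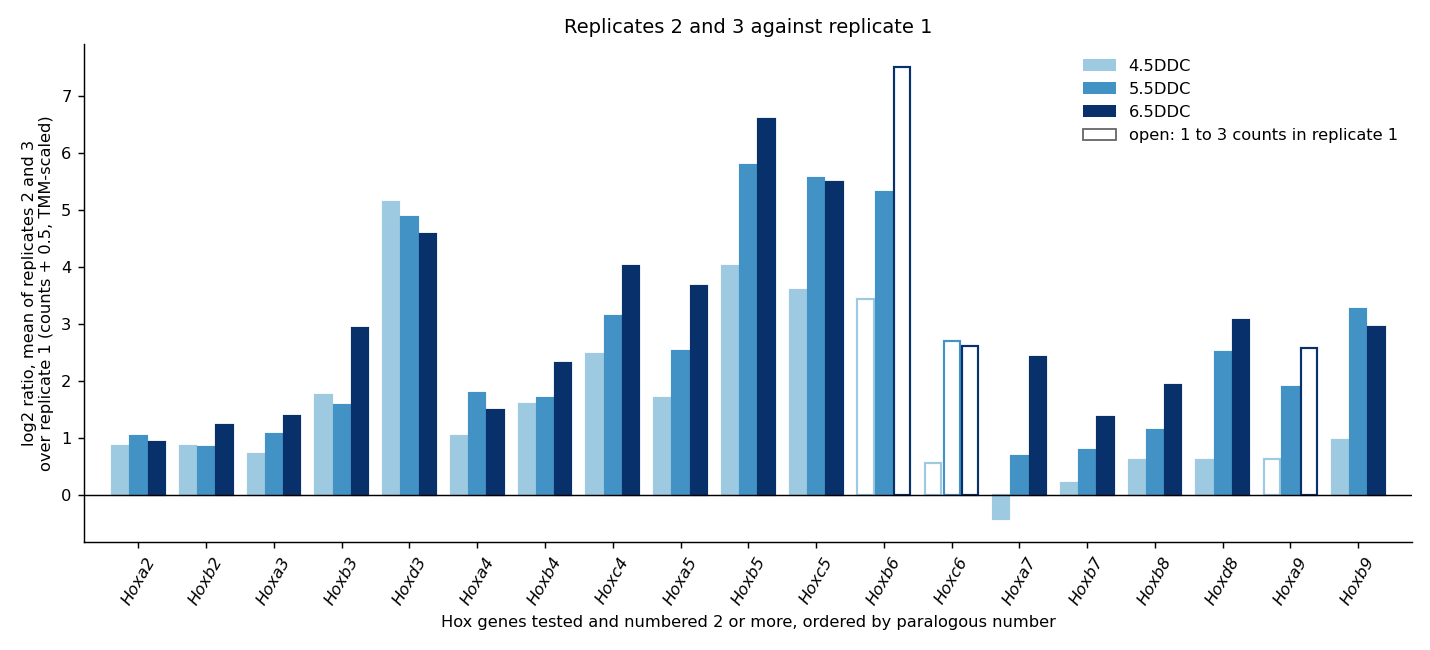
Log2 ratio of the mean of replicates 2 and 3 to replicate 1 (vertical axis, TMM-scaled counts with 0.5 added) for each Hox gene tested that is numbered 2 or more (horizontal axis, by paralog number) at each time point, with open bars where replicate 1 had 1 to 3 counts. Bars for Hoxb5, Hoxb6, Hoxc5 and Hoxd3 are the tallest, and those of Hoxa2, Hoxb2 and Hoxb7 are among the shortest.

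Whether the Hox genes changed between 4.5DDC and 6.5DDC was first tested over all 9 libraries. With edgeR 0 of 20 were called at an adjusted p under 0.05, higher or lower, against 18.7% of the 14742 genes tested. At an unadjusted p under 0.05, 2 of 20 passed, against 35.4% of all genes. DESeq2 called 1, Hoxb9, against 24.9% of all genes, and limma voom called 0, against 17.7%. The smallest adjusted p by edgeR was 0.0577, for Hoxb9 at a log2 fold change of 2.83 (SE 0.92). None of the 20 had libraries of 4.5DDC and 6.5DDC that did not overlap (0 of 20), against 35.1% of all genes. The estimates were nonetheless positive for 19 of the 20, with a median of 0.65 against 0.00 for all genes. The count of 0 stands beside standard errors as wide as 1.56 for Hoxb6, 1.48 for Hoxb5 and 1.34 for Hoxd3, the genes with some of the widest gaps between replicate 1 and the others.

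In the shorter intervals edgeR called 0 of 20 from 4.5DDC to 5.5DDC, against 0.0746% of all genes, and 0 of 20 from 5.5DDC to 6.5DDC, against 0.224%. At an unadjusted p under 0.05 both intervals also had 0, against 15.4% and 18.5% of all genes. DESeq2 called 0 in each, against 3.07% and 4.35%, and limma voom called 0 in each, against 0.0678% and 0.142%. The change in one interval was tested against that in the other, and edgeR called 0 of 20, against 0.0% of all genes, with 0 at an unadjusted p under 0.05, against 4.755%, and 0 by DESeq2 and limma voom, against 0.0% by each. The medians of the 20 were 0.55 for the first interval and 0.33 for the second.

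With a term for replicate 1 in the same edgeR fit, 7 of 20 rose over the whole span, against 16.0% of all genes. They were Hoxa5, Hoxb5, Hoxb6, Hoxb8, Hoxb9, Hoxc4 and Hoxd3. In the shorter intervals this fit called 1 of 20 in each, Hoxb6 and then Hoxb9, against 2.52% and 2.42% of all genes higher. A fit of replicates 2 and 3 only, added after seeing the data, tested the same 20 among 14638 genes. It called 10 of 20 higher and 0 lower by edgeR over the whole span, against 16.5% of genes higher, with 13 of 20 at an unadjusted p under 0.05, against 43.9% of genes. The 10 were Hoxa5, Hoxb5, Hoxb6, Hoxb8, Hoxb9, Hoxc4, Hoxc5, Hoxc6, Hoxd3 and Hoxd8. The replicate block over all 9 libraries called 6 over the whole span, against 1913 of the 14742 genes higher, which were Hoxa5, Hoxb5, Hoxb6, Hoxb9 and Hoxd3 of these 10 and also Hoxa9. From 4.5DDC to 5.5DDC the fit of replicates 2 and 3 only called 4, Hoxb5, Hoxb6, Hoxb8 and Hoxc4, against 2.42% of genes, and from 5.5DDC to 6.5DDC 3, Hoxa5, Hoxb5 and Hoxb9, against 2.46%. The block called 0 of 20 in both intervals, against 1.44% and 1.32% of the genes tested. Its smallest edgeR adjusted p for a Hox gene was 0.0811 and 0.0863. The difference between the intervals, in replicates 2 and 3 only, gave 0 of 20 by edgeR, against 0.0% of genes, with 2 of 20 at an unadjusted p under 0.05, against 6.07%, so no gene was shown to favour one interval.

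Within replicates 2 and 3 both 6.5DDC libraries were above both 4.5DDC libraries for 16 of 20, against 31.6% of all genes. Hoxc5 was among the 16, although in FPKM its replicate 2 was lower at 6.5DDC than at 4.5DDC. In replicate 1 the later library was higher for 3 of 20, Hoxa9, Hoxb9 and Hoxd3, against 51.2% of all genes. Of these, Hoxa9 had 2 counts in each of the libraries compared, under the floor of 3 counts, so its direction rests on scaling alone. The median log2 change of the 20 from 4.5DDC to 6.5DDC was -0.35 within replicate 1 and 0.99 within replicates 2 and 3. The medians of the 2 sets of libraries thus differ in sign. A single library per time point in replicate 1 gives no spread, so its changes have no test, and the difference between the 2 sets was not tested.

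**Figure D5:**
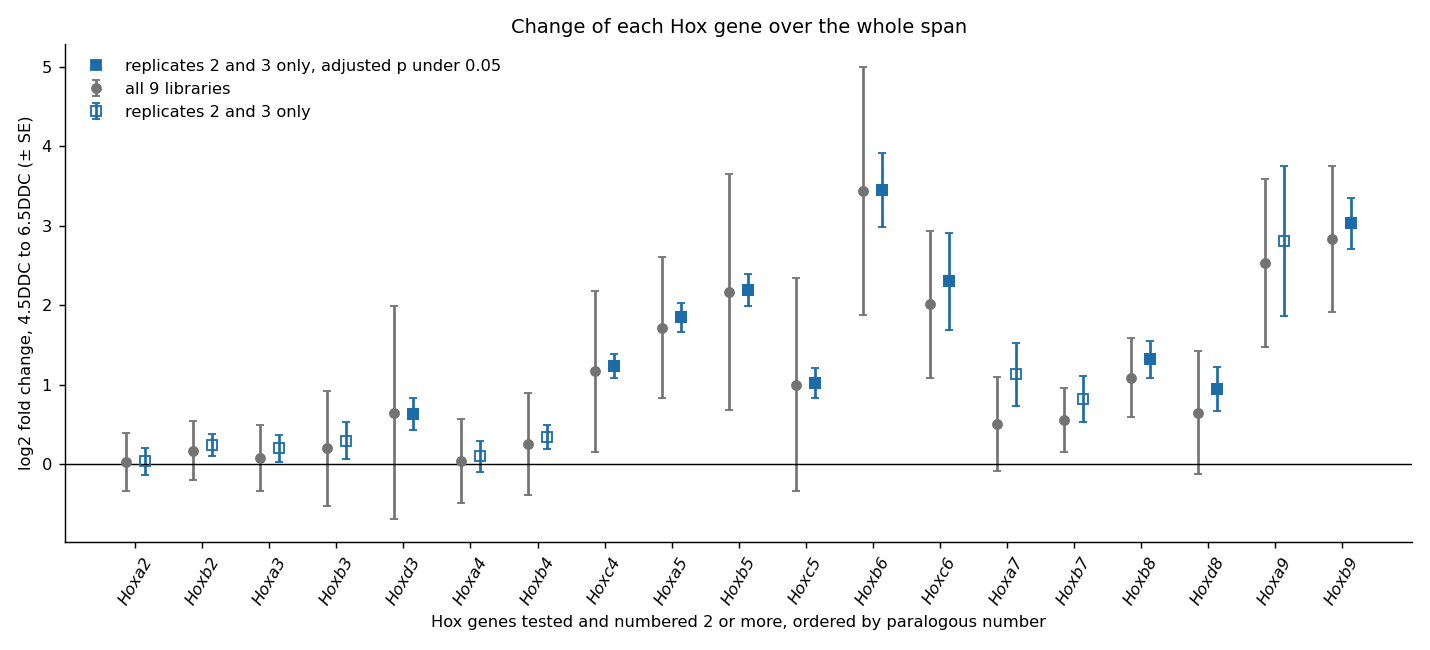
Log2 fold change from 4.5DDC to 6.5DDC (vertical axis, ± SE) of each Hox gene tested that is numbered 2 or more (horizontal axis, by paralog number) by edgeR over all 9 libraries and over replicates 2 and 3 only, where filled squares mark an adjusted p under 0.05. The estimates of the 2 fits lie close together for most genes, and the bars are wider over all 9 libraries.

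Single genes show how the tests divide. In replicates 2 and 3, with 2 libraries per time point, Hoxb5 rose by a log2 fold change of 2.19 (SE 0.20, edgeR adjusted p 0.000487), and over all 9 libraries its estimate was 2.17 (SE 1.48, edgeR adjusted p 0.322). Hoxa5 rose by 1.85 (SE 0.18, edgeR adjusted p 0.000591), in 2 of 2 replicates, against 1.72 (SE 0.89, edgeR adjusted p 0.197) over all 9. The estimates barely moved and the standard errors differed several-fold. Hoxb6 rose by 3.45 (SE 0.46, edgeR adjusted p 0.00161) and Hoxb9 by 3.03 (SE 0.32, edgeR adjusted p 0.000730). Hoxb8 rose by 1.32 (SE 0.23, edgeR adjusted p 0.00436) and Hoxc4 by 1.24 (SE 0.15, edgeR adjusted p 0.00112). Hoxd3, called at an edgeR adjusted p of 0.0476, rose by only 0.63 (SE 0.20). These p-values come from 2 libraries against 2 and leave out replicate 1. Their spread was pooled over all 3 time points, so the 5.5DDC libraries also enter them. At 5.5DDC replicates 2 and 3 lay closest, with a Pearson r of 0.993 against 0.977 at 4.5DDC and 0.983 at 6.5DDC.

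The 2 intervals can be set side by side for the genes called in replicates 2 and 3, none of which the replicate block called in either interval. From 4.5DDC to 5.5DDC Hoxb6 rose by 2.67 (SE 0.46, edgeR adjusted p 0.0288), and Hoxb8 rose by 1.19 (SE 0.23, edgeR adjusted p 0.0372). From 5.5DDC to 6.5DDC Hoxb8 had an estimate of 0.13 (SE 0.22, edgeR adjusted p 0.752), and the difference between its intervals was -1.06 (SE 0.38, edgeR adjusted p 0.719). Most of the span of Hoxb8 thus lay in the first interval by estimate, without a difference that passed the test. Hoxa5 had 0.74 (SE 0.18, edgeR adjusted p 0.0729) in the first interval and rose by 1.11 (SE 0.18, edgeR adjusted p 0.0183) in the second. Hoxb9 had 1.48 (SE 0.34, edgeR adjusted p 0.0609) in the first and rose by 1.55 (SE 0.29, edgeR adjusted p 0.0293) in the second. The difference between its intervals was 0.07 (SE 0.58, edgeR adjusted p 0.980). Hoxb5 rose in both, by 1.33 (SE 0.20, edgeR adjusted p 0.0209) and by 0.86 (SE 0.19, edgeR adjusted p 0.0453).

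The changes in replicates 2 and 3 were ordered by paralog number up to a point. Of paralogs numbered 2, 0 of 2 tested were called by edgeR, with log2 fold changes of 0.04 for Hoxa2 and 0.24 for Hoxb2. Those numbered 3 and 4 gave 1 of 3 each, with medians of 0.30 and 0.34. All 3 numbered 5 and both numbered 6 were called, with medians of 1.85 and 2.87. The larger estimates thus lay at number 5 and above, apart from that of Hoxc4. Numbers 7, 8 and 9 gave 0 of 2, 2 of 2 and 1 of 2, with medians of 0.98, 1.14 and 2.92. Hoxb7 missed the threshold at 0.82 (SE 0.29, edgeR adjusted p 0.0624), as did Hoxa9 at 2.81 (SE 0.94, edgeR adjusted p 0.0536), which does not show that they held level. The replicate block called Hoxa9 higher over the same span, at 2.40 (edgeR adjusted p 0.0459). In replicates 1, 2 and 3 Hoxa9 had only 2, 4 and 0 counts at 4.5DDC, 4, 11 and 3 at 5.5DDC, and 2, 23 and 16 at 6.5DDC. By cluster, 1 of 7 tested was called in cluster A, 4 of 8 in cluster B, 3 of 3 in cluster C and 2 of 2 in cluster D, against 16.5% of all genes higher in that fit. No test set one paralog number or cluster against another.

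RefSeq promoters on the build GRCm38.p6 matched 21 of the 38 members, with 23 windows, out of 32851 windows in all. Windows of 250 bases before the start of 4 members are shown, chosen after their values were seen, because Hoxa5 and Hoxb8 rose in replicates 2 and 3 while Hoxa2 and Hoxb4 were not called there. They are Hoxa2 at chr6:52164832-52165081 and Hoxa5 at chr6:52204588-52204837 on the minus strand, and Hoxb4 at chr11:96318017-96318266 and Hoxb8 at chr11:96281655-96281904 on the plus strand. Capitals mark matches, on either strand, to TGATNNAT, a motif bound by Hox proteins with Pbx, and to TTTATG, a motif of the caudal factors.
Hoxa2: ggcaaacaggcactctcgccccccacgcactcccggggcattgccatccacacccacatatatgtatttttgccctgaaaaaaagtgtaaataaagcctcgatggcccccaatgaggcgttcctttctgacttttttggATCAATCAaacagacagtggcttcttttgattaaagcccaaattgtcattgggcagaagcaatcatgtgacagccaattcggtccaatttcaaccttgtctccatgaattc
Hoxa5: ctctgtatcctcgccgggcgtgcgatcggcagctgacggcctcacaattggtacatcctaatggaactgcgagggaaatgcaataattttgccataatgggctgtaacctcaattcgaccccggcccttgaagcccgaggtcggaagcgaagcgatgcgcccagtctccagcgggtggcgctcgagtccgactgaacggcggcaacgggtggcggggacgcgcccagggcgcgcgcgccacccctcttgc
Hoxb4: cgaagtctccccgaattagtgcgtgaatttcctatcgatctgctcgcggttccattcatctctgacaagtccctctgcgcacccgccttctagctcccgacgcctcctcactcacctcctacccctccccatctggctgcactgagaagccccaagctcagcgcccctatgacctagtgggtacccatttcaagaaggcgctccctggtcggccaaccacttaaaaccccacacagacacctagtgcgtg
Hoxb8: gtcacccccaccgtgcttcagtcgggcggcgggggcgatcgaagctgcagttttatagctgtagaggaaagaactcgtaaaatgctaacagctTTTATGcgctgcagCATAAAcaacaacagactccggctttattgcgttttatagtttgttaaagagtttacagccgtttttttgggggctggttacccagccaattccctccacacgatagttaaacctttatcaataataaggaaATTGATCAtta
TGATNNAT occurred in 7.68% of all promoter windows and in 4 of the 23 Hox windows, those of Hoxa2, Hoxb1, Hoxb8 and Hoxd11. TTTATG occurred in 10.8% of all windows and in 4 of the 23, those of Hoxa7, Hoxb8, Hoxd3 and Hoxd11. Of the promoters shown, Hoxb8 held both motifs, Hoxa2 held TGATNNAT, and Hoxa5 and Hoxb4 held neither in this window. A match is a description of letters and not a site.

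Genes that work with the Hox proteins were given beside them. For every list that follows, the shares of all genes over the whole span by edgeR were 9.21% higher, 9.53% lower and 35.4% at an unadjusted p under 0.05, and in replicates 2 and 3 only they were 16.5% higher and 14.8% lower. With the replicate block 1913 of the 14742 genes were higher and 1505 lower, and the block is given for the lists in which it changed a call. All 9 cofactor genes of the Meis, Pbx and Pknox families, whose products bind DNA together with Hox proteins, were tested, and edgeR called 0 higher and 0 lower over the whole span. At an unadjusted p under 0.05 there was 1 of 9, Pbx2, and DESeq2 and limma voom called 0. In replicates 2 and 3 only, edgeR called 0 higher and 1 lower, Meis2, as did the replicate block. Their median log2 fold change was -0.13. On TMM-scaled CPM, the scale used for this count in every list, replicate 1 was lower than both others at all 3 time points for 6 of 9, among them Meis1, Meis2 and Meis3, against the 12.5% of all genes. The summed level in replicates 1, 2 and 3 was 292, 481 and 351 FPKM at 4.5DDC, 335, 389 and 422 FPKM at 5.5DDC, and 223, 308 and 374 FPKM at 6.5DDC. The most abundant was Meis2 at a mean of 79.5 FPKM. The other 3 of 9 were not lower throughout, and the part of these genes in the Hox gap was not tested.

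The retinoic acid genes had a gap as wide as that of the Hox genes in single members. Of 9 listed, 8 were tested, and over the whole span edgeR, DESeq2 and limma voom each called 0 higher and 2 lower, with 2 at an unadjusted p under 0.05 by edgeR. The 2 that fell by edgeR were Crabp1 and Crabp2, which bind retinoic acid in the cytoplasm. The fit of replicates 2 and 3 only called 2 higher and the same 2 lower by edgeR. There Aldh1a2 rose by a log2 fold change of 2.28 (SE 0.37, edgeR adjusted p 0.00365) and Cyp26b1 by 1.67 (SE 0.45, edgeR adjusted p 0.0264), in the same fit that called 10 Hox genes higher. The replicate block called Aldh1a2 higher and not Cyp26b1, and the same 2 lower. Rarb, a receptor gene that is itself switched on by retinoic acid, stood in replicate 1 at 0.919, 0.198 and 0.799 FPKM at the successive time points. Replicate 2 had 9.22, 8.98 and 9.03 FPKM of Rarb, and replicate 3 had 11.6, 8.54 and 7.63 FPKM. Aldh1a2, which encodes an enzyme that makes retinoic acid, had 0.0611, 0.0859 and 0.144 FPKM in replicate 1, and between 0.931 and 8.76 FPKM in replicates 2 and 3. Rarb, Aldh1a2 and Crabp1 were the 3 of 8 that lay lower in replicate 1 at every time point, and the other 5 did not. The list summed in replicates 1, 2 and 3 to 317, 718 and 504 FPKM at 4.5DDC, 135, 290 and 303 FPKM at 5.5DDC, and 112, 132 and 144 FPKM at 6.5DDC. Crabp2 was the most abundant at a mean of 150.4 FPKM and Cyp26c1 was at 0 throughout. Their part in the difference between replicates was not tested.

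Caudal and rhombomere regulators were low apart from Epha4. Of 9 listed, 5 were tested, and over the whole span edgeR, DESeq2 and limma voom each called 0 higher and 1 lower, with 1 at an unadjusted p under 0.05 by edgeR. That gene was Epha4 by edgeR, a receptor of rhombomere borders, which fell by 1.01 on the log2 scale (SE 0.24, edgeR adjusted p 0.0189). In replicates 2 and 3 only, edgeR called 0 higher and 1 lower. It had 28.8, 20.1 and 23.7 FPKM at 4.5DDC and 14.2, 11.4 and 10.7 FPKM at 6.5DDC in replicates 1, 2 and 3. The 2 time points did not overlap, and replicate 1 was the highest library at both. Cdx1 was at 0 in all 9 libraries, and Cdx2, a caudal factor upstream of trunk Hox genes, stayed at or under 0.781 FPKM. The list summed in replicates 1, 2 and 3 to 32.1, 23.3 and 27.2 FPKM at 4.5DDC, 28.7, 16.7 and 18.9 FPKM at 5.5DDC, and 17.4, 15.2 and 15.8 FPKM at 6.5DDC. On TMM-scaled CPM Gbx2 was lower in replicate 1 at all 3 time points. Of 11 forebrain and midbrain genes, 2 were tested, with 0 called by edgeR over the whole span, 0 at an unadjusted p under 0.05, and 0 by DESeq2 and limma voom. Both, Lhx2 and En2, were higher in replicate 1 at all 3 time points on TMM-scaled CPM, against 11.1% of all genes, at levels under 1 FPKM. In FPKM En2 was not higher in replicate 1 at 6.5DDC.

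Polycomb and trithorax genes, whose products hold Hox clusters silent or active, matched 14 of 16 listed symbols and all 14 were tested. By edgeR 0 rose and 3 fell over the whole span, Ezh2, Eed and Cbx2, with 4 at an unadjusted p under 0.05, while DESeq2 called 0 higher and 4 lower and limma voom 0 and 3. Over all genes 9.53% fell by edgeR and 35.4% had an unadjusted p under 0.05. With replicates 2 and 3 only, 1 was higher, Ezh1, and 3 were lower by edgeR. The replicate block did not call Ezh1 (edgeR adjusted p 0.13), and it called 0 higher and 3 lower. Ezh2, the histone methyltransferase, fell by 0.84 (SE 0.19, edgeR adjusted p 0.0165) and had 132.7, 135.7 and 175.7 FPKM at 4.5DDC and 93.0, 92.7 and 70.9 FPKM at 6.5DDC in replicates 1, 2 and 3. Its 4.5DDC and 6.5DDC libraries did not overlap, and replicate 1 was close to replicate 2 at both. None of the 14 was lower in replicate 1 at all 3 time points (0 of 14) and 1 of 14 was higher, against 16 and 0 of the 20 Hox genes. They summed to between 411.7 and 547.7 FPKM a library, with Ezh2 at a mean of 109.9 FPKM as the most abundant.

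Genes inside and beside the clusters were counted as well. Of 17 noncoding genes of the clusters, 8 had a symbol in the tables, 5 of these had 0 counts in all 9 libraries, and 1 was tested. Hoxb3os, an antisense transcript of cluster B, had 8.02, 6.05 and 6.59 FPKM at 4.5DDC and 2.98, 4.60 and 4.42 FPKM at 6.5DDC in replicates 1, 2 and 3. Its 2 time points did not overlap, and it fell by 0.72 (SE 0.20, edgeR adjusted p 0.0328). It was not called in replicates 2 and 3 only, at -0.50 (SE 0.20, edgeR adjusted p 0.0878). Of 14 neighbours of the clusters, 12 were matched and 7 tested, with 0 called by edgeR over the whole span and 2 at an unadjusted p under 0.05, Hibadh and Smug1. DESeq2 called 2 higher and limma voom 0. Of 8 tested in replicates 2 and 3 only, edgeR called 2 higher and 0 lower, and the replicate block called 1 higher, Smug1, and 0 lower. Replicate 1 was lower at all 3 time points for 3 of the 7, Skap2, Smug1 and Lnp. Skap2, next to cluster A, had 28.3, 24.5 and 34.6 FPKM in replicate 1 and between 38.5 and 64.1 FPKM in the others, a smaller gap than that of most Hox genes. The neighbours summed to between 247.8 and 346.8 FPKM, with Cbx5 at a mean of 96.6 FPKM as the most abundant.

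Markers of cell types were set beside the gap between replicates. Of the 9 progenitor genes, edgeR called 1 higher, Prom1, which encodes the sorted protein, and 3 lower, Sox3, Nkx6-1 and Nkx6-2, and replicate 1 was lower at all 3 time points for 1, Nkx2-2. Of 12 neuron genes 10 were matched and tested, and replicate 1 was lower at all 3 time points for 6 of the 10, Elavl3, Elavl4, Stmn2, Dcx, Chat and Gata3. The neuron genes summed in replicates 1, 2 and 3 to 123, 275 and 209 FPKM at 4.5DDC, 94.6, 319 and 331 FPKM at 5.5DDC, and 178, 398 and 431 FPKM at 6.5DDC. Stmn2 was the most abundant at a mean of 108 FPKM, and no marker was at 0 in all 9 libraries. Over the whole span edgeR called 4 neuron genes higher, Fev, Gata2, Gata3 and Tph2, and 1 lower, Isl1. Using replicates 2 and 3 only, it called 6 higher, adding Stmn2 at a log2 fold change of 1.15 (SE 0.18, edgeR adjusted p 0.00283) and Dcx at 1.43 (SE 0.14, edgeR adjusted p 0.000548), and 1 lower. For the progenitor genes that fit called 1 higher and 4 lower. The replicate block called the same 6 neuron genes higher and 1 lower, and 1 progenitor gene higher and 2 lower, without Nkx6-2. The neuron sum was, like the Hox sum, low in replicate 1 and higher at later time points in replicates 2 and 3. Within replicate 1 the 2 went opposite ways from 4.5DDC to 6.5DDC, as the neuron sum rose and the Hox sum fell. The part of the neuron genes in the Hox result was not tested.

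Mesoderm and mesenchyme markers, 8 of 8 tested, summed in replicates 1, 2 and 3 to 8.70, 14.3 and 7.98 FPKM at 4.5DDC, 13.7, 26.7 and 24.3 FPKM at 5.5DDC, and 19.3, 35.2 and 48.0 FPKM at 6.5DDC. Col3a1 was the most abundant at a mean of 8.94 FPKM, edgeR called 1 higher, Twist1, and 0 lower over the whole span (DESeq2 2 and 0, limma voom 1 and 0, 5 at an unadjusted p under 0.05, and 1 and 1 in replicates 2 and 3 only, where 7 were tested, and with the replicate block 4, Twist1, Prrx1, Pdgfra and Col3a1, and 1, Meox1), and none of the 8 was at 0 throughout. Replicate by replicate, 3 of 8 were lower in replicate 1 throughout, Meox1, Prrx1 and Col3a1, while 1, T, was higher. This sum also moved with the Hox genes in part, and its part in the result was not tested. Endoderm markers went the other way. All 3 of 6 that were tested were higher in replicate 1 at every time point, and the 6 summed to 3.96, 1.75 and 0.853 FPKM at 4.5DDC, 3.77, 1.19 and 1.69 FPKM at 5.5DDC, and 14.5, 2.28 and 2.16 FPKM at 6.5DDC. Gata4 was their most abundant gene at a mean of 2.05 FPKM, none of the 6 was at 0 throughout, and edgeR, DESeq2 and limma voom called 0 of the 3 over the whole span, with 0 at an unadjusted p under 0.05, while the replicate block called all 3 higher, Sox17 (edgeR adjusted p 0.0311), Gata4 (edgeR adjusted p 0.0365) and Gata6 (edgeR adjusted p 0.0488). In replicates 2 and 3 only, 2 of these were tested and 0 called, Gata4 at 0.83 (edgeR adjusted p 0.121) and Gata6 at 0.90 (edgeR adjusted p 0.255). Within replicate 1 the log2 changes were 2.03 for Gata4 and 1.67 for Gata6. The part of the endoderm genes in the result was not tested. Neural crest markers summed to between 0.173 and 0.621 FPKM over 4 genes, with Tfap2a at 0.162 FPKM as the most abundant and 1 tested, which was not called by edgeR over the whole span. Of the pluripotent markers 1 was tested and not called.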

How the data were processed

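Gene expression was measured by RNA sequencing in 9 libraries of prominin-1 sorted NSCs, grouped by the 3 time points. The authors mapped reads to GRCm38 with TopHat2 2.0.4 and deposited counts per gene from HTSeq 0.6.1. For 98 of the 38197 symbols, none of them a Hox gene, the deposited values were not whole, as in expected counts or estimated counts, and they were rounded. The deposited FPKM values, which the authors made with Cufflinks 2.1.1, were used as levels. The deposited log2 values, which the authors made with limma voom, were not used here. The annotation release and strand setting are not stated.

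The members, the lists and the split of replicate 1 were chosen with earlier results of these data known. Members whose mean level reached 5 FPKM at some time point, members called and the most abundant member of each cluster were named in full. Tests ran in R 4.3.3, by edgeR 4.0.16, DESeq2 1.42.0 and limma 3.58.1, and plots in Python 3.11.15. After filterByExpr, which kept 14742 genes, and TMM scaling (factors from 0.951 to 1.04), edgeR's quasi-likelihood test was fitted to all 9 libraries with time point as the factor, leaving 6 residual degrees of freedom, at a common dispersion of 0.0733. P-values were adjusted by Benjamini-Hochberg over all genes tested at 0.05. The alternatives were other scalings, filters, tests and units, only the 6 libraries compared, a replicate block, a term for replicate 1, each library left out and, added after seeing the data, replicates 2 and 3 only. Libraries of the same replicate number were compared by correlating, across genes, how far each lay from its time-point mean. For replicates 1, 2 and 3 this gave 0.743, 0.386 and 0.452 between 4.5DDC and 5.5DDC, 0.454, 0.367 and 0.197 between 5.5DDC and 6.5DDC, and 0.383, -0.0396 and -0.215 between 4.5DDC and 6.5DDC. Adjacent time points were taken as paired by number because each of their values passed 0.1, and the ends of the span were not. Between replicates 2 and 3 the numbers do not single out pairs. Different numbers gave 0.405 for 5.5DDC replicate 3 with 6.5DDC replicate 2 and 0.39 for 4.5DDC replicate 3 with 5.5DDC replicate 2. They gave 0.46 for 4.5DDC replicate 2 with 6.5DDC replicate 3 and 0.487 for 4.5DDC replicate 3 with 6.5DDC replicate 2. The replicate block was still run over the whole span, where these values do not bear out its pairing of replicates 2 and 3 by number. Positions come from GENCODE M21 on GRCm38. The tests were also tried on simulated data. Values of some single genes are not reported here.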

Additional observations from a re-analysis of the deposited data

How the results depend on the processing

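The count of Hox genes higher from 4.5DDC to 6.5DDC, 0 by edgeR over all 9 libraries, became 1 with no filter on low counts, with DESeq2 and with only the 6 libraries compared (Hoxb9 each time), and 1 with limma on log2(FPKM + 0.1) (Hoxa9). It was 6 with a replicate block (Hoxa5, Hoxa9, Hoxb5, Hoxb6, Hoxb9 and Hoxd3, against 1913 of the 14742 genes tested), 7 with a term for replicate 1 and 10 with replicates 2 and 3 only, an alternative chosen after seeing the data. Leaving out 1 library gave 0 to 3: 3 without 6.5DDC replicate 1 (Hoxa5, Hoxb8 and Hoxb9), 1 without 5.5DDC replicate 1 (Hoxb9) and 0 without any other library. From 4.5DDC to 5.5DDC the count of 0 became 1 with the term for replicate 1 and 4 with replicates 2 and 3 only, and from 5.5DDC to 6.5DDC it became 1 and 3. The replicate block called 0 in both shorter intervals, against 1.44% and 1.32% of the genes tested. The counts of Hox genes lower and of genes whose change differed between intervals were 0 in every alternative run, and the fit of 6 libraries could not give the latter. The median log2 fold change within replicate 1 alone was -0.35 over the whole span, -0.16 in the first interval and -0.09 in the second. The cause was not tested.

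Over 16 genes and 1324 values of single genes under alternatives, 1285 kept their direction and side of the threshold, 36 passed the threshold, 3 moved and 0 reversed. The 3 are Hoxb6 at 1.75 over the whole span, and Hoxb9 at 1.10 over the whole span and 0.74 in the second interval, on log2(FPKM + 1). For the summed FPKM of clusters, leaving out 1 of 3 libraries cannot move the mean beyond their SD, so it tests nothing. In CPM, the ratio of replicates 2 and 3 to replicate 1 stayed within 1.5 times its FPKM value for each cluster and time point. Depth limits the 18 members not tested, with at most 16 counts in any library, in which change was not detectable. It also limits tested members with some libraries under 3 counts, such as Hoxa9, Hoxb6 and Hoxc6. Overlapping transcripts limit Hoxd3 and Hoxb3 most, and replicates 2 and 3 alone rest on 2 libraries per time point.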
